A study of Mus musculus with 12 samples.

Results

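Open chromatin of Sox9 Low cells of the mouse intestinal epithelium was compared with that of Sox9 Sublow cells. The comparison took in the 2 consensus peak lists of these populations out of 4 deposited lists, which stand for 6 of the 12 libraries of the series. A peak is a stretch of DNA in which a transposase cut more often than in its surroundings. Peaks that had 1 bp or more in common, or touched, were joined into 62752 merged regions on the mm9 build. Each region was classed as held by both lists, by Low only or by Sublow only, and all 62752 are described here.

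The cells were intestinal epithelial cells of C57Bl/6 mice that carry the Sox9EGFP reporter, sorted by its level and profiled by Omni-ATAC. Each of the Sox9 Low and Sox9 Sublow groups had 3 paired-end libraries, with 12000 cells collected per population. Both groups share strain, reporter and protocol, and the labels give no treatment, no age and no separate animals. The reporter marks a range of expression and not a cell type, so each group is an enriched mixture.

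Sox9 is a transcription factor of intestinal crypts, the pockets at the base of the villi where the epithelium is renewed. Lgr5-expressing stem cells at the crypt base divide and give rise to transit-amplifying cells, which divide further before they mature into absorptive or secretory cells. In earlier work with this reporter, Low cells were enriched for the stem cells and Sublow cells for the transit-amplifying cells, so the comparison addresses how chromatin differs between a stem cell compartment and its immediate progeny. Open chromatin at promoters tends to be shared between related cell types, whereas enhancers far from promoters differ more often. The lists pair no peak with a gene and are on another build than the gene table at hand, so no region is given a gene, a promoter or a DNA sequence, and the labelled identity of the populations was not checked against marker genes.

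Most open regions were common to the stem cell enriched and the transit-amplifying enriched population. Of the 62752 regions, 46804 were held by both lists, which is 74.6% (exact 95% interval 74.2 to 74.9%). Low alone held 10852 regions, 17.3% of all, and Sublow alone held 5096, 8.12% of all. Own regions, as those held by 1 list are called below, thus made up 18.8% of the 57656 Low regions (exact 95% interval 18.5 to 19.1%) and 9.82% of the 51900 Sublow regions (9.56 to 10.1%). Each population is given as 1 list with no score, read count or value per library. The sequencing depth is thus unknown, and differences could not be set against the spread between replicates. Exact intervals here reflect counting error alone and take regions to be independent.

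The deposited lists differed in length, and the larger number of Low only regions is bound up with that difference. The Low list held 58356 peaks over 30.1 Mb, with a median width of 433 bp, and the Sublow list held 52113 peaks over 28.7 Mb, with a median width of 464 bp. There were 2.13 Low only regions for each Sublow only region. Shared regions held nearly the same number of peaks of each list, 47504 of Low and 47017 of Sublow, so the own regions carry almost the whole difference in list length. Lists cut to equal length must for this reason have nearly equal numbers of own regions. With the widest 26056 peaks of each list there were 3208 Low only and 3283 Sublow only regions, a ratio of 0.977, and with the widest 52113 Low peaks against all Sublow peaks the ratio was 0.957. Both ratios follow from the construction and do not bear on the cause of the difference. The part that library depth has in the length of the lists was not tested.

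Counted in bases, the lists overlapped to a similar degree. Both lists covered 25.1 Mb in common, which was 83.2% of the Low bases and 87.5% of the Sublow bases, with a Jaccard index (bases of both over bases of either) of 0.743. Low covered 5.08 Mb that Sublow did not, of which 2.72 Mb lay in Low only regions. Sublow covered 3.58 Mb that Low did not, of which 1.21 Mb lay in Sublow only regions. The remaining unshared bases lay within regions held by both lists, at their edges or in gaps between peaks that the other list joined. They came to 2.36 Mb for Low and 2.37 Mb for Sublow, nearly the same amount, so the difference in unshared bases between the lists lay in the own regions.

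Own regions were narrow in both populations. Low only regions had a median width of 218 bp (exact 95% interval 216 to 221) and Sublow only regions 208 bp (206 to 211), while regions held by both had a median of 557 bp (554 to 561). A width of 500 bp was reached by 433 Low only regions (3.99%), by 160 Sublow only regions (3.14%) and by 27029 regions held by both (57.8%). A merged region spans the peaks of both lists, so the single peaks are the fairer measure. Low peaks in shared regions had a median of 504 bp, and Sublow peaks in shared regions also 504 bp.

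The share of peaks without a partner in the other list differed with peak width throughout the range. Among peaks under 150 bp, 70.3% of Low peaks (1042 of 1482) and 49.5% of Sublow peaks (523 of 1057) had none. From 200 to under 300 bp the shares were 36.0% of Low peaks and 20.8% of Sublow peaks. From 400 to under 500 bp they were 9.08% of Low peaks and 3.63% of Sublow peaks. From 500 to under 750 bp they were 3.18% of Low peaks and 1.26% of Sublow peaks. At 1000 bp and above, 5 of 5225 Low peaks stood alone, or 0.0957%, and 0 of 5797 Sublow peaks did, with an exact upper limit of 0.0636%. In each of the 6 width classes below 750 bp the share was higher in Low, with exact intervals that did not overlap. The surplus of Low only regions was thus not limited to the narrowest peaks. There were 1.93 Low only regions for each Sublow only region from 150 to under 200 bp, 2.93 from 400 to under 500 bp, and 2.74 from 500 to under 750 bp.

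**Figure D1:**
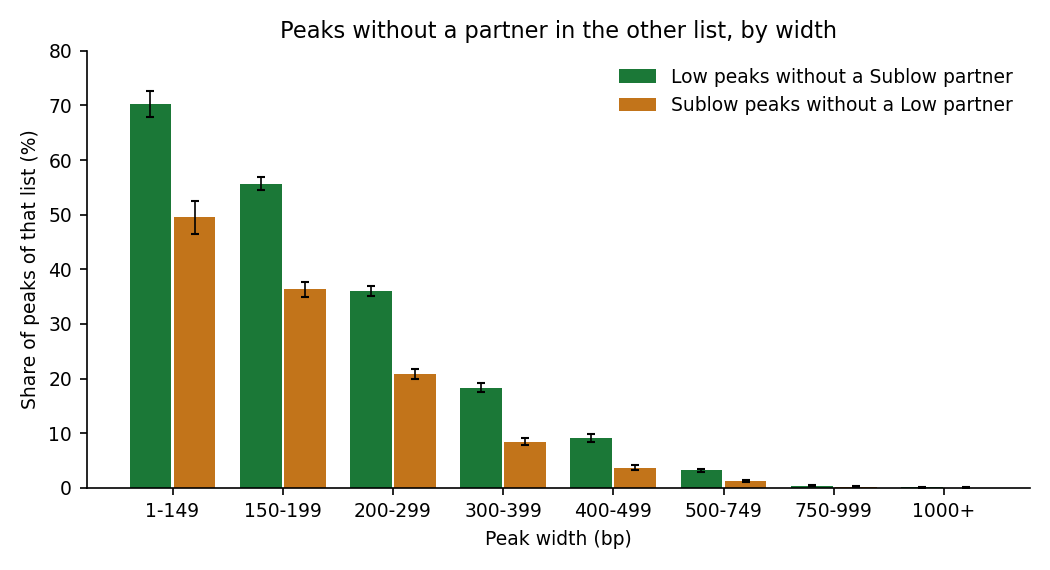
Share of the peaks of each list that had no partner in the other list (vertical axis, %), by peak width in bp (horizontal axis), with Low bars left of Sublow bars and exact 95% intervals as error bars. The share was 70.3% of Low peaks and 49.5% of Sublow peaks under 150 bp, and under 0.1% of either at 1000 bp and above.

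The few broad own regions were far from the other list's peaks in Low and nearer in Sublow. The widest Low only region spanned 1366 bp at chr17:75404383-75405748, and the nearest Sublow peak was 137655 bp away. Next in width came regions of 1263 bp at chr17:25569941-25571203, of 1247 bp at chr2:39181344-39182590, of 1105 bp at chr9:117160762-117161866 and of 1032 bp at chr9:58160083-58161114. The nearest Sublow peak to these lay between 31360 and 78732 bp away. The widest Sublow only region spanned 964 bp at chr1:153871766-153872729, with the nearest Low peak 13890 bp away. It was followed by regions of 943 bp at chr2:35673991-35674933, of 936 bp at chr13:24337722-24338657, of 861 bp at chr12:55560580-55561440 and of 849 bp at chr7:148942360-148943208. A Low peak lay between 2815 and 13276 bp from each of those 4.

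In regions held by both lists the peaks nearly coincided. There was 1 peak of each list in 45908 of the 46804 shared regions (98.1%). In these the median peak width was 504 bp in Low and 499 bp in Sublow, and the median log2 of Low over Sublow width was 0.0018 (exact 95% interval 0 to 0.0037). The middle 50% of regions had log2 ratios from -0.14 to 0.16. Midpoints lay a median of 22 bp apart, and 78.9% were within 50 bp. The overlap covered a median of 88.2% of the wider peak. The Low peak lay inside the Sublow peak in 14018 regions (30.5%), the Sublow peak inside the Low peak in 14582 (31.8%), and the peaks were staggered in 17132 (37.3%). Start and end were the same to the base in 176 regions.

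Large differences in width were rare. The Low peak was at least 2-fold wider in 1205 regions with 1 peak of each list, or 2.62%, and the Sublow peak in 771, or 1.68%. They were found among narrow peaks. The share past 2-fold in either direction was 9.24% where the mean of both widths was 300 to 400 bp, 1.91% from 500 to 750 bp and 0.0474% from 1000 to 1500 bp, and there were 0 such regions among the 761 of 1500 bp or more. The most extreme ratios came from peaks of a few bp. At chr10:60875779-60876167 the Low peak spanned 389 bp and the Sublow peak 9 bp. At chr7:152082657-152083121 the Low peak spanned 465 bp and the Sublow peak 17 bp. In the other direction, the Low peak spanned 2 bp and the Sublow peak 222 bp at chr2:93483196-93483417. At chr2:157335153-157336029 the Low peak spanned 9 bp and the Sublow peak 877 bp. The widest shared regions were of nearly equal width in both lists. The first, at chr17:39980065-39984021, was 3957 bp wide in Low and 3949 bp in Sublow, and the second, at chr11:102177932-102181049, was 3095 bp in Low and 3116 bp in Sublow. The third, at chr3:58218332-58221213, spanned 2882 bp in each.

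**Figure D2:**
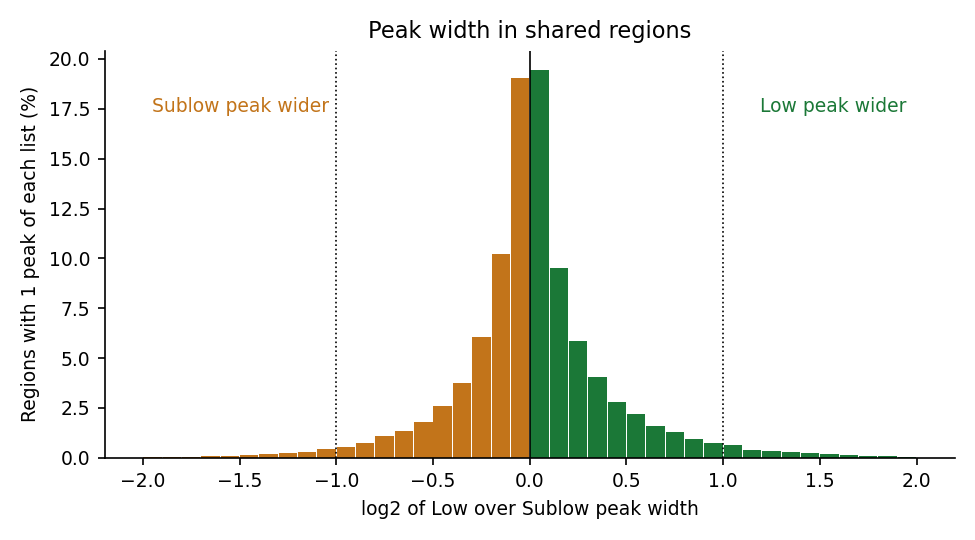
Log2 of Low over Sublow peak width (horizontal axis) in the 45908 regions with 1 peak of each list, as the percentage of regions in each bin of 0.1 (vertical axis). Green bins hold regions with a Low peak at least as wide as the Sublow peak, orange bins those with a wider Sublow peak, and dotted lines mark 2-fold. The distribution centres on 0, and 55 regions below -2 and 99 at 2 or above are not drawn.

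Joined peaks were the clearest asymmetry inside shared regions. In 685 regions (1.46%, exact 95% interval 1.36 to 1.58%) Low had several peaks where Sublow had 1, and in 204 (0.436%, 0.378 to 0.4998%) Low had 1 where Sublow had several. Where 1 Sublow peak spanned 2 Low peaks (678 regions), it had a median width of 1247 bp, and the Low peaks lay a median of 230 bp apart. Where 1 Low peak spanned 2 Sublow peaks (202 regions), it had a median width of 1040 bp, and the Sublow peaks lay 216.5 bp apart. The most divided region was chr11:83664285-83666820, with 4 Low peaks over 1601 bp and 1 Sublow peak of 2260 bp. At chr3:88258926-88260643 there were 3 Low peaks over 1111 bp and 1 Sublow peak of 1707 bp. The opposite case was chr13:49226796-49228683, with 1 Low peak of 1362 bp and 3 Sublow peaks over 1357 bp.

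Few regions lay close to the limit of 1 bp. Of the regions with 1 peak of each list, 9 overlapped by at most 10 bp, among them 1 that touched without a common base. Just outside the limit, 10 Low only regions lay within 10 bp of a Sublow peak, and 5 Sublow only regions lay within 10 bp of a Low peak. Within 100 bp there were 45 Low only and 18 Sublow only regions. A much stricter rule moved more of them. When a shared peak had to overlap its partner by 50% of both widths, there were 14240 Low only and 7997 Sublow only regions, and 66.5% were held by both. Peaks that overlapped by less were then counted as own regions of their list, so the added own regions still overlap a peak of the other list.

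Own regions of Low lay farther from the common open chromatin than own regions of Sublow. The median distance to the nearest region held by both lists was 10108 bp for Low only regions (exact 95% interval 9758 to 10460) and 5064 bp for Sublow only regions (4858 to 5237). From a shared region to the nearest other shared region on either side the median was 6476 bp (6399 to 6549). Low only regions thus lay farther from a shared region than shared regions lay from each other, and Sublow only regions nearer. A shared region lay within 1000 bp of 9.34% of Low only regions (8.79 to 9.9%) and of 16.3% of Sublow only regions (15.3 to 17.4%). More than 100 kb from any shared region lay 724 Low only regions (6.67%) and 90 Sublow only regions (1.77%).

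The distance differed in the same direction at every own width. For own regions under 200 bp the median distance to a shared region was 8398 bp in Low only (7924 to 8960) and 4710 bp in Sublow only (4422 to 4964). From 300 to under 500 bp it was 12933 bp in Low only (12315 to 13900) and 6017 bp in Sublow only (5329 to 6614). At 500 bp and above it was 17588 bp in Low only (15042 to 20056) and 5936 bp in Sublow only (5137 to 7122). Cutting both lists to their widest 26056 peaks gave median distances of 20167 bp in Low only and 11728 bp in Sublow only. The cut left 3208 Low only and 3283 Sublow only regions, with median widths of 538.5 bp and 526 bp. Of the deposited own regions, only 433 Low only and 160 Sublow only reach 500 bp. Many own regions of the cut are thus held by both in the deposited lists. Whether the deposited own regions differ in distance at equal list length was therefore not tested.

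**Figure D3:**
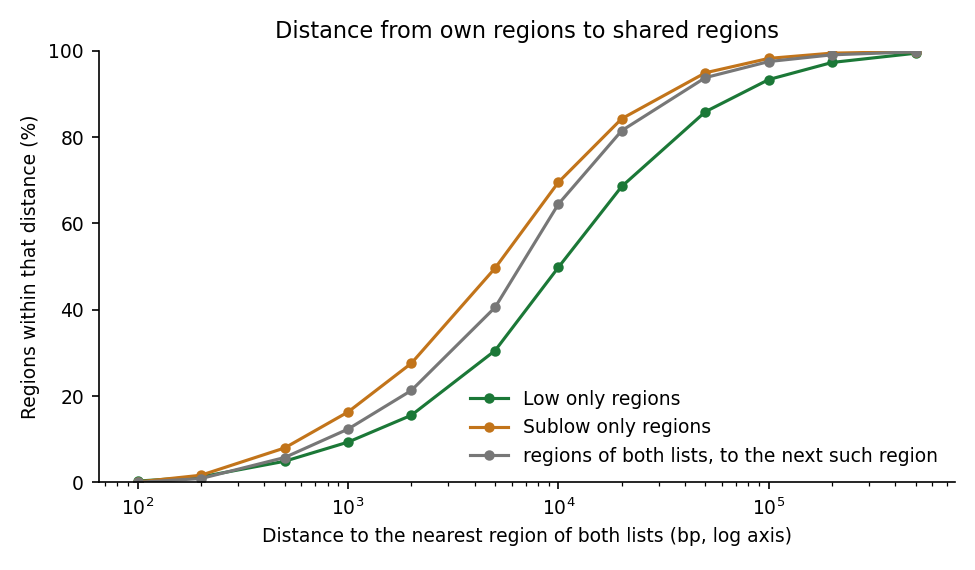
Cumulative share of regions (vertical axis, %) within a given distance of the nearest region held by both lists (horizontal axis, bp, log scale), for Low only regions, Sublow only regions and the shared regions themselves. At 10000 bp the line reaches 49.8% for Low only, 69.5% for Sublow only and 64.5% for shared regions.

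The neighbourhood of own regions was described by counting shared regions in windows of 100 kb on a fixed grid. Some region was present in 13847 windows. In the 3287 windows with 1 shared region there were 0.448 Low only and 0.142 Sublow only regions per window, a ratio of 3.15 (1473 Low only and 468 Sublow only). In the 2917 windows with 3 or 4 shared regions there were 0.782 Low only and 0.383 Sublow only per window, a ratio of 2.04. In the 666 windows with 10 or more there were 1.08 Low only and 0.917 Sublow only per window, a ratio of 1.18 (720 Low only and 611 Sublow only). Low only regions were 28.2% of the regions in windows with 1 shared region (exact 95% interval 27.0 to 29.4%) and 8.03% in windows with 10 or more (7.47 to 8.61%). Sublow only regions were 8.95% (8.19 to 9.76%) and 6.81% (6.3 to 7.35%) in the same 2 kinds of window. Shared regions make up most of these totals, so such shares tend to fall with their number by construction. By the counts per window, the ratio in the deposited lists was higher where shared open regions were sparser. Among own regions of at least 300 bp, the ratio was 3.89 with 1 shared region and 1.28 with 10 or more. With the widest 52113 Low peaks against all Sublow peaks it was 1.55 with 1 shared region and 0.458 with 10 or more. This cut took narrow peaks from Low alone and raised the number of Sublow only regions from 5096 to 7363. The added ones are held by both in the deposited lists. The value of 0.458 thus does not show that dense windows of the deposited lists hold more Sublow only than Low only regions. When both lists were cut to their widest 26056 peaks, the ratio was 1.08 with 1 shared region (exact 95% interval 0.976 to 1.2). It was 0.222 with 10 or more (0.0234 to 1.07). Both intervals include equal numbers, and they overlap each other.

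Another 1462 windows held own regions but no shared region. Of these, 1182 held Low only regions alone, 206 held Sublow only regions alone and 74 held both kinds. These windows contained 1610 Low only and 298 Sublow only regions, a ratio of 5.4. Of the 13847 windows with a region, 789 (5.70%) held at least 3 Low only regions and 226 (1.63%) at least 3 Sublow only regions. Both limits were met by 13 windows (0.094%), and whether this differs from unrelated placement was not tested.

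The widths of shared peaks differed with the neighbourhood in the same direction. They come from the same peak calls that set the classes, so they are not independent of them. With 1 shared region in the window, the Low peak was the wider in 61.6% of the regions with 1 peak of each list (exact 95% interval 59.9 to 63.3%). The median width there was 554 bp in Low and 510 bp in Sublow, a median log2 ratio of 0.05 (0.043 to 0.06). With 3 or 4 shared regions the Low peak was wider in 52.6% (51.6 to 53.6%). With 10 or more it was wider in 44.6% (43.4 to 45.7%), the median width was 479 bp in Low and 485 bp in Sublow, and the median log2 ratio was -0.02 (-0.025 to -0.015). The difference is small beside the middle 50% of log2 ratios given above, and its direction turned between 3 or 4 and 5 to 9 shared regions. Shared peaks of both lists were also wider in sparse windows than in dense ones, and the part of overall peak width in this difference was not tested.

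The width of shared peaks was also compared between windows by the own regions they held. In windows with at least 3 Low only and no Sublow only regions, the Low peak was wider in 54.7% of 1956 shared regions (52.5 to 57.0%), with a median log2 ratio of 0.02 (0.011 to 0.03). Low was at least 2-fold wider in 70 of them (3.58%) and Sublow in 31 (1.58%). In windows with at least 3 Sublow only and no Low only regions, the Low peak was wider in 45.8% of 561 shared regions (41.6 to 50.04%), with a median log2 ratio of -0.015 (-0.045 to 0.0022). Low was at least 2-fold wider in 9 of these and Sublow in 10. The intervals of both shares did not overlap each other, while that of the Sublow rich windows included 50%. In windows without own regions the Low peak was wider in 52.4% (51.6 to 53.3%), and in windows with 1 or 2 Low only and no Sublow only regions in 52.2% (51.3 to 53.1%). The interval of the Low rich windows overlapped both, so a lean of shared peaks toward Low beside Low only regions was not shown. In windows with 1 or 2 Sublow only and no Low only regions, the Low peak was wider in 46.7% of 6567 shared regions (45.5 to 47.9%). In windows with own regions of both lists it was wider in 46.8% (45.9 to 47.7%). These 2 intervals lay below 50% and below that of windows without own regions. The part of the number of shared regions per window in this was not tested.

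**Figure D4:**
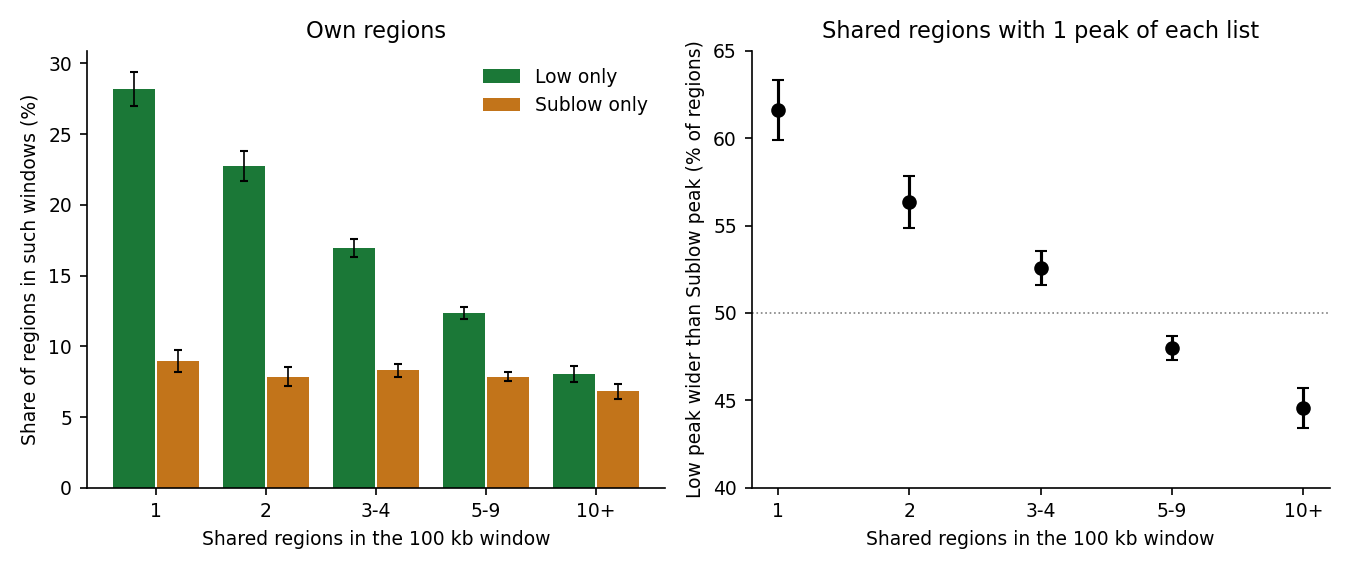
Left, Low only and Sublow only regions as a share of all regions (vertical axis, %) in windows of 100 kb grouped by their number of shared regions (horizontal axis). Right, share of regions with 1 peak of each list in which the Low peak was the wider (vertical axis, %, not starting at 0, with 50% dotted) over the same groups. Error bars are exact 95% intervals. Windows without a shared region are not drawn. Low only regions make up 28.2% of regions in the sparsest drawn group and 8.03% in the densest. Shared regions are part of the totals on the left, so those shares tend to fall with their number by construction. The Low peak is the wider in 61.6% in the sparsest drawn group and 44.6% in the densest.

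The windows with the most Low only regions held few or no Sublow peaks. First came chr5:129400001-129500000, where all 7 regions were Low only, with widths from 83 to 318 bp. At chr1:191600001-191700000, 7 of 10 regions were Low only, lined up over the first part of the window, with 3 shared regions beyond them. The widest of these 7 spanned 619 bp. At chr2:79200001-79300000 all 6 regions were Low only, with widths from 177 to 546 bp. At chr11:71800001-71900000, 6 of 7 were Low only, from 139 to 677 bp wide, and at chr11:117300001-117400000 another 6 of 7. None of these 5 windows held a Sublow only region. Against the 17.3% of all regions that were Low only, their shares ran from 70% to 100%, but the windows were picked for their number of own regions, so these shares are a description.

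The windows with the most Sublow only regions mixed them with shared regions. At chr19:32500001-32600000, 6 of 12 regions were Sublow only and 6 were shared, and the Sublow only widths ran from 170 to 275 bp. Of the shared ones, chr19:32585365-32585916 was 324 bp wide in Low and 552 bp in Sublow, and chr19:32537460-32538011 was 400 bp in Low and 552 bp in Sublow. The other 4 were somewhat wider in Low. At chr17:24100001-24200000, 6 of 17 regions were Sublow only, 1 was Low only and 10 were shared. At chr6:85700001-85800000, 5 of 6 regions were Sublow only, and they were broader than most, with a median of 483 bp and a maximum of 642 bp. At chr9:123500001-123600000, 5 of 8 were Sublow only, and at chr17:28700001-28800000, 5 of 9 were Sublow only and 1 was Low only. These windows held between 1 and 10 shared regions each, against 0 to 3 in the windows named for Low. Over all regions, 8.12% were Sublow only.

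**Figure D5:**
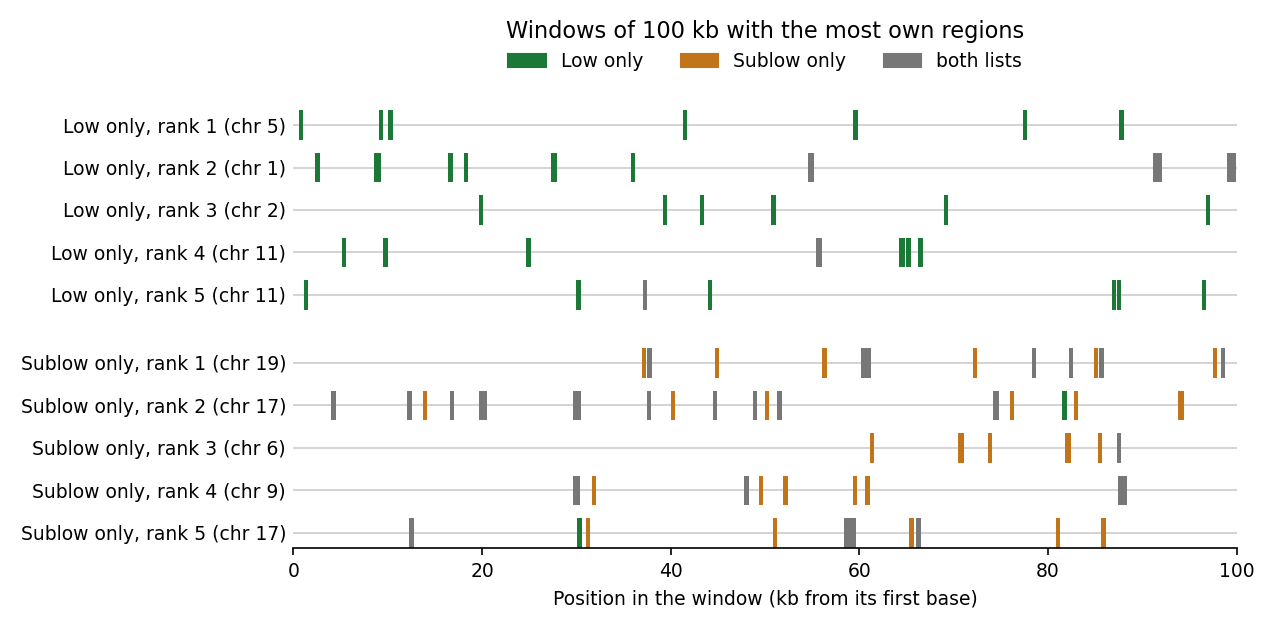
The 5 windows of 100 kb with the most Low only regions (upper rows) and the 5 with the most Sublow only regions (lower rows). Each bar is a region at its position from the first base of the window (horizontal axis, kb), coloured by class and drawn at least 0.45 kb wide. The upper rows hold 32 Low only and 5 shared regions, and the lower rows hold 27 Sublow only, 2 Low only and 23 shared regions.

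Most own regions had no own region of the same list as a direct neighbour, more so in Sublow. A run is an unbroken series of regions of 1 class along a chromosome. Low only regions formed 8247 runs, of which 6398 (77.6%) were a single region, and 502 had at least 3. Sublow only regions formed 4621 runs, of which 4202 (90.9%) were a single region, and 50 had at least 3. Counted by region, 41.0% of Low only regions were next to another Low only region. The share of Sublow only regions next to another Sublow only region was 17.5%. The longer runs of Low go with its larger number of own regions, and the part of that number was not tested. The longest Low only runs had 8 regions each. That at chr1:191588268-191636018 spanned 47.8 kb, while those at chr2:78761268-79297089 and chr4:130434501-130878221 spanned 535.8 kb and 443.7 kb. The longest Sublow only run had 5 regions within 24.6 kb at chr6:85761114-85785739, with a median width of 483 bp. Runs of 4 Sublow only regions followed at chr2:57114184-57138702 and chr7:147597172-147680309.

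The classes were spread over all chromosomes. On each of the 19 autosomes Low only regions outnumbered Sublow only regions, by ratios from 1.66 on chromosome 19 to 2.43 on chromosome 15. The share of Low only regions ran from 15.2% on chromosome 7 (exact 95% interval 14.1 to 16.4%) to 19.05% on chromosome 14 (17.5 to 20.7%). The share of Sublow only regions ran from 7.22% on chromosome 15 (6.26 to 8.28%) to 9.55% on chromosome 10 (8.57 to 10.6%). The X chromosome, with 1249 regions, had 16.3% Low only (14.3 to 18.4%) and 9.13% Sublow only (7.59 to 10.9%), within the ranges of the autosomes. On Y, 20 regions were too few to compare, with 4 Low only, 3 Sublow only and 13 shared.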

How the data were processed

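Per the submitters' processing notes, MACS2 2.1.2, Bowtie2 2.3.4, Trim Galore 0.4.3, deepTools 2.5.2 and Picard 2.10.3 were used, with the mm9 build. Their settings, any shift of reads for the transposase and the rule that made 1 list from 3 libraries are not given in the sources at hand. The authors deposited chromosome, start, end and name of each peak, with no score. Both lists hold peaks whose start equals their end, so positions were read as counted from 1 with the end included. No peaks of one list overlapped. Peaks were merged as described above, and regions were put in windows by their midpoint. Shares have exact (Clopper-Pearson) and medians exact binomial (order statistic) 95% intervals. Named regions are the 5 windows with the most own regions, the 5 widest own regions and the 3 longest runs of each list, and, as far as given, the extremes of width ratio and peak number in shared regions. The comparison and its classes were chosen with earlier results of these data known, and the breakdowns by neighbourhood were added after seeing the data. Alternatives were another overlap rule, merging distance, smallest width, list length, set of chromosomes and window. The functions were tested on 19000 simulated regions, of which 100% received the right class. Python 3.11.15, numpy 2.4.6, pandas 2.3.3 and scipy 1.17.1 were used.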

Additional observations from a re-analysis of the deposited data

How the results depend on the processing

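No paired analysis was possible because the lists pool the libraries, which also means that leaving out a replicate could not be tried. Alternatives that need an mm9 annotation were not run. The settings by neighbourhood were chosen after seeing the data. With the widest 26056 peaks of each list, 77.8% of regions were held by both, there were 3208 Low only and 3283 Sublow only regions (ratio 0.977), median own widths were 538.5 bp in Low and 526 bp in Sublow, median distances to a shared region were 20167 bp for Low only and 11728 bp for Sublow only, the median log2 width ratio was -0.0068 and the Jaccard index 0.753. With the widest 52113 Low peaks against all Sublow peaks, 75.6% were held by both, Low only regions numbered 7045 (ratio 0.957) with a median of 269 bp, their distance was 11628 bp, the log2 width ratio was 0.0074 and the Jaccard index 0.746. These settings remove narrow peaks by construction, in the second case from Low alone, and equal lengths force nearly equal numbers of own regions. Regions whose peak in the other list was removed count there as own regions. In windows with 1 shared region the ratio of Low only to Sublow only regions was then 1.08 (exact 95% interval 0.976 to 1.2) and 1.55. With 10 or more it was 0.222 (exact 95% interval 0.0234 to 1.07) and 0.458. With peaks of at least 200 bp, 75.7% were held by both, the ratio was 1.91, own medians were 280 bp in Low and 267 bp in Sublow, distances were 11476 bp for Low only and 5762 bp for Sublow only, the Jaccard index was 0.746, 125 regions had several Sublow peaks and 1 Low peak, and 13.1% of X regions were Low only. With a reciprocal overlap of 50%, 66.5% were held by both, Sublow only regions numbered 7997 (ratio 1.78), and their distance was 6265 bp. Own regions of that setting include peaks that overlap the other list by less than 50%. Merging peaks up to 500 bp apart gave 75.5% held by both, a ratio of 2.21, distances of 11006 bp for Low only and 5756 bp for Sublow only, 1115 regions with several Low peaks and 550 with several Sublow peaks. Across these 5 settings and autosomes only, the median distance of Low only regions was 1.58 to 2.26 times that of Sublow only regions. The ratio of Low only to Sublow only regions by window was not computed for reciprocal overlap or for merging up to 500 bp. Its 6 alternatives were the other settings, a grid shifted by 50 kb and windows of 200 kb. In 6 of 6 the ratio was higher with 1 shared region in the window than with 10 or more, with overlapping intervals for the widest 26056 peaks. With 1 shared region and with 10 or more, it was 3.34 and 1.19 for the shifted grid. For windows of 200 kb it was 4.225 and 1.55. Depth is unknown, so a region missing from a list may have been closed or missed.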
